A study of Mus musculus with 8 samples.

Results

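The genes described here are 38 receptors for acetylcholine, serotonin, dopamine, noradrenaline, histamine, adenosine and endocannabinoids. They were taken by name, by the transmitter they bind, and not by any measured value. Of the 21368 genes with a named probe on the array, 37 are members. Hrh2, a histamine receptor, was the member without a named probe. A total of 34 members passed the filter on dim probes and were tested among 16620 genes. They comprise 5 muscarinic and 5 nicotinic acetylcholine receptor genes, 10 serotonin, 3 dopamine, 7 noradrenaline and 2 histamine receptor genes, and Adora1 and Cnr1. The nicotinic Chrna3 and the serotonin receptors Htr1b and Htr1d had a probe but did not pass.

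RNA was profiled from the hippocampus of 8 female mice on 1-colour expression arrays, 1 array per mouse. The 4 Hydroxyurea mice took hydroxyurea, a ribonucleotide reductase inhibitor, in their water at 45 mg/kg/day for 10 weeks, starting at 9 to 14 weeks of age. Hydroxyurea 1 and 2 ended at 24 weeks of age and Hydroxyurea 3 and 4 at 19 weeks. The 4 Control mice were untreated, and all were 19 weeks old. Both groups were nontransgenic littermates from an APPswe/PSEN1dE9 colony on a C57BL/6 background, so no mouse carried the Alzheimer transgenes and no transgenic mouse was profiled here. Mice were caged in groups, and which of them shared a cage is not given in the sources used here. All arrays lay on 1 slide, with the Hydroxyurea arrays in one slide row and the Control arrays in the other, so slide row and treatment cannot be told apart.

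These receptors carry the slow, state-setting inputs of the hippocampus. Acetylcholine comes mainly from the medial septum, serotonin from the raphe nuclei, noradrenaline from the locus coeruleus, dopamine from the midbrain and the locus coeruleus, and histamine from the tuberomammillary nucleus. Most of the receptors act through G proteins: Gq/11 raises phospholipase C activity and calcium, Gs raises cyclic AMP, and Gi/o lowers cyclic AMP and presynaptic calcium entry. The nicotinic subunits and Htr3a instead form ion channels that open within milliseconds of transmitter binding. Adenosine formed from released ATP, and endocannabinoids released by the postsynaptic cell, act back on nerve terminals through the receptors encoded by Adora1 and Cnr1 and reduce further release.

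Values are log2 signal relative to the 75th percentile of each array, called the scaled log2 signal here. A value of 0 therefore marks a probe at that percentile. The summed scaled signal of a marker list adds the scaled signals before the log. It covers all genes of the list with a probe, tested or not, so the brightest genes weigh most. Treatment differences are Hydroxyurea minus Control, in log2 units with the SE of the limma fit, a linear model with spread shared across genes. The 75th-percentile signal ran from 1052 in Hydroxyurea 2 to 2162 in Hydroxyurea 4, and from 1677 to 2417 in Control mice. Between 60.6% and 69.8% of spots were well above background on Hydroxyurea arrays, and between 63.0% and 77.2% on Control arrays. The replicated probes of Control 1 varied by 12.9% (coefficient of variation), against 3.72% to 4.44% on the 7 other arrays. Probes of hippocampal CA1 neurons were well above background, with all 8 markers past the filter, as were 10 of 11 dentate gyrus markers. Markers of neighbouring tissue passed as well: all 18 choroid plexus, 11 of 12 thalamus, 11 of 12 striatum and 8 of 10 medial habenula genes. Some were dim. The habenula marker Gpr151 and the thalamus marker Gbx2 were each well above background on 2 Hydroxyurea and 3 Control arrays. These counts therefore do not measure how much of each tissue was present. The numbers of mice limit the precision of every value below. In whole tissue, fewer cells of a type and less RNA per cell cannot be told apart.

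The brightest receptor probes were those of Cnr1, Adora1 and Hrh3, with mean scaled log2 signals over the 8 mice of 4.71, 4.39 and 3.75. Each is a Gi/o-coupled receptor found on nerve terminals. Adra2c (2.93), Chrm1 (2.88) and Htr2c (2.13) followed. At the dim end lay Chrna3 (-7.44), Htr1b (-6.10), Htr1d (-5.98), Drd3 (-5.78) and Chrm5 (-5.69). Of the 37 members with a probe, 28 were well above background on all 8 arrays, 8 on some arrays and 1, Chrna3, on none. Probes differ in how well they bind their target, so these orders describe probe signal and not transcript amounts.

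**Figure D1:**
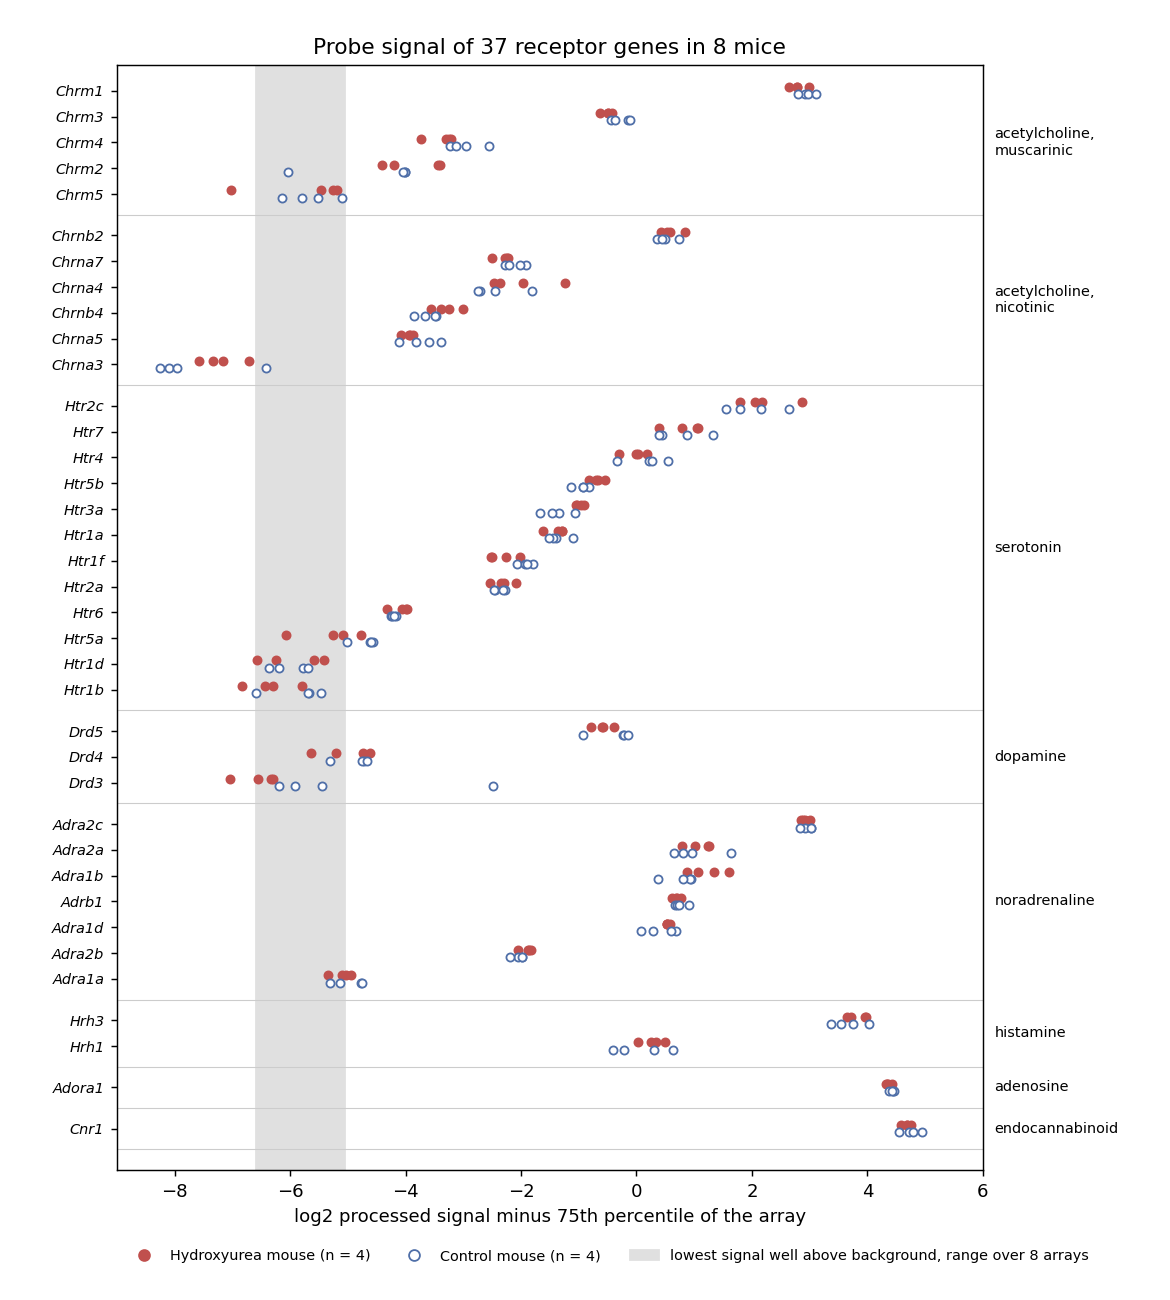
Scaled log2 signal (log2 signal minus the array's 75th percentile) of the 37 receptor genes with a probe, 1 point per mouse, with Hydroxyurea and Control mice in separate colours. Cnr1 and Adora1 sit highest and Chrna3 lowest. Drd3 has the widest span, 4.55, because Control 1 lies far above the other mice.

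No receptor gene differed between Hydroxyurea and Control mice at an adjusted p under 0.05. The lowest Benjamini-Hochberg adjusted p among the 34 was 0.467 (limma, n = 4 mice each), and 0 of all 16620 genes passed (0%). At an unadjusted p under 0.05 there were 7 receptor genes, 20.6% of those tested, against 9.89% of all genes. Htr3a, Htr5b, Adra1b and Chrnb4 were the 4 with a higher mean in Hydroxyurea mice, where 3.53% of all genes met that threshold in the same direction. Htr1f, Chrm3 and Chrm4 were the 3 with a lower mean, where 6.36% of all genes did. Scaling each array to its median instead gave 2 receptors with a higher and 6 with a lower mean at that p. Among all genes under that p, 90.8% then had a lower mean, against 64.3% here. With the 19-week mice alone, 2 of the 7 kept an unadjusted p under 0.05, Htr1f and Htr5b. With age as a covariate, 2 did, Htr1f and Htr3a. Without Control 1 and Hydroxyurea 2, the noisy and the dim array, Htr3a did. Chrna4, not among the 7, had such a p in each of these 3 fits, as did Htr5a in the first and Htr4 in the last. The 7 include serotonin, noradrenaline, nicotinic and muscarinic receptors, both ion channels and G protein-coupled receptors.

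The members as a whole were centred close to 0. Of the 34, 16 had a positive and 18 a negative treatment difference, with a median of -0.03. In all tested genes the split was 8100 to 8520, so 51.3% were below 0. The median size of the difference, sign ignored, was 0.19 in the receptors and 0.10 in all genes. For 18 receptors the 95% interval of the difference excluded a 1.5-fold change in either direction, which held for 77.7% of all genes tested. The 4 Hydroxyurea values lay wholly apart from the 4 Control values for 3 receptors, 8.82% of those tested, against 7.5% of all genes. Htr3a and Htr5b lay above, as did 2.38% of all genes, and Drd3 lay below, as did 5.11%. Drd3 passed the filter only through the Control arrays and was below background on all Hydroxyurea arrays, so its place among the 3 carries no weight. It is also among the 18 with a negative difference.

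**Figure D2:**
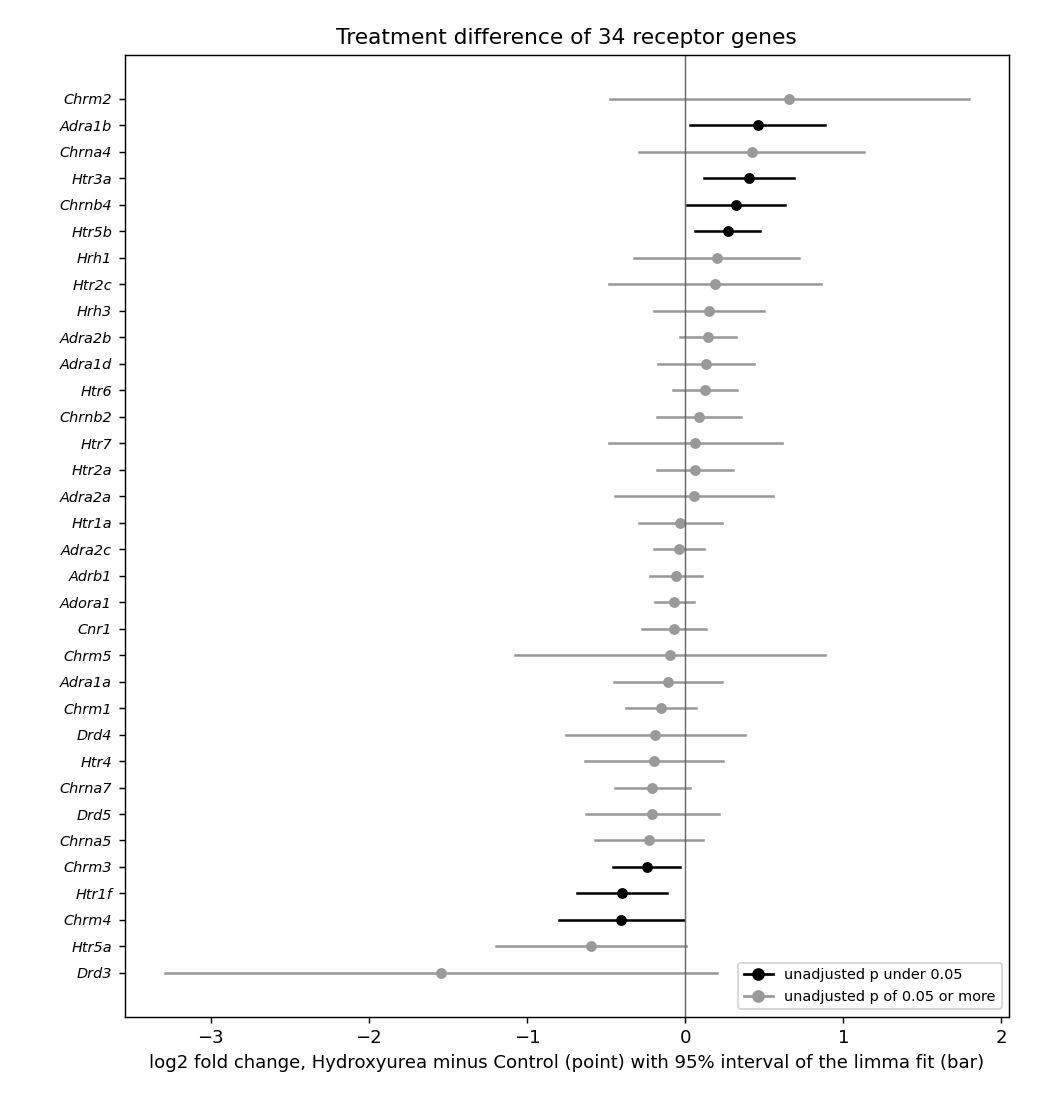
Treatment difference (Hydroxyurea minus Control, log2) of the 34 tested receptor genes with its 95% interval, from the limma fit with 4 mice per group. Points scatter on both sides of 0, from -1.55 for Drd3 to 0.66 for Chrm2, which also have the widest intervals.

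Among the muscarinic receptors, 4 of 5 had a lower mean in Hydroxyurea mice. Chrm3, a Gq/11-coupled receptor of hippocampal pyramidal cells, had scaled log2 signals of -0.43, -0.64, -0.50 and -0.49 in Hydroxyurea 1 to 4, against -0.15, -0.44, -0.38 and -0.11 in Control 1 to 4. Hydroxyurea 1 lay just inside the Control range and the other 3 treated mice lay below it. The difference was -0.24 ± 0.09 (limma unadjusted p = 0.030, adjusted p = 0.491). Chrm4, a Gi/o-coupled receptor, read -3.24, -3.30, -3.21 and -3.73 in Hydroxyurea mice and -2.56, -3.22, -3.13 and -2.95 in Control mice. Only Hydroxyurea 3 fell within the Control range. Its difference was -0.40 ± 0.17 (limma unadjusted p = 0.047, adjusted p = 0.506). Chrm4 is also abundant in striatum, and 7 of 11 striatum markers had a higher mean in Hydroxyurea mice, by a median of 0.08. Their summed scaled signal was 23.9 to 29.6 in Hydroxyurea and 23.4 to 27.7 in Control mice. The part of striatal tissue in the Chrm4 difference was not tested.

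Chrm1, the main muscarinic receptor of pyramidal neurons and Gq/11-coupled, was first of the 5 in probe signal in every mouse. It read 2.99, 2.79, 2.77 and 2.65 in Hydroxyurea mice and 2.92, 2.98, 2.80 and 3.12 in Control mice. The ranges overlapped, and the difference of -0.15 ± 0.10 had an unadjusted p of 0.145 in limma. A dimmer second Chrm1 probe gave -0.23. The order by mean probe signal was Chrm1, Chrm3 (-0.39), Chrm4 (-3.17), Chrm2 (-4.19) and Chrm5 (-5.69).

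Chrm2 encodes the Gi/o-coupled autoreceptor of cholinergic terminals. It had the largest positive difference of any member, 0.66 ± 0.49, and that value rested on 1 mouse. The probe read -3.41, -4.41, -3.44 and -4.20 in Hydroxyurea mice and -6.03, -4.01, -4.00 and -4.05 in Control mice. Control 1, the array with noisy replicate spots, stood about 2 log2 units below the other Control mice, and without it the difference was 0.16. Chrm5, a Gq/11-coupled receptor, was well above background on 2 Hydroxyurea and 3 Control arrays, with a difference of -0.09 ± 0.42.

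The nicotinic subunits assemble into pentameric cation channels. Chrnb2 and Chrna4 form the common high-affinity brain receptor, Chrna7 makes calcium-permeable channels of its own subunits, and Chrna3, Chrna5 and Chrnb4 typify ganglia and the medial habenula. Chrna5, Chrna3 and Chrnb4 are adjacent protein-coding genes on chromosome 9. Their probes nevertheless differed in detection. Chrnb4 (mean -3.46) and Chrna5 (-3.84) were well above background on all 8 arrays, and Chrna3 (-7.44) on none. The RefSeq promoter windows of the cluster are given to show how unlike these neighbours are at their starts. Each window spans 250 bases before to 50 after the start on GRCm38.p6. Capitals mark the GC box GGGCGG on either strand, overlaps allowed, the sequence that Sp-family factors are known to bind. Chrna5 has a pair of annotated starts, at chr9:54980630-54980929 and chr9:54981238-54981537 on the plus strand. Chrna3 (chr9:55026513-55026812) and Chrnb4 (chr9:55048495-55048794) are on the minus strand.
Chrna5, upstream start: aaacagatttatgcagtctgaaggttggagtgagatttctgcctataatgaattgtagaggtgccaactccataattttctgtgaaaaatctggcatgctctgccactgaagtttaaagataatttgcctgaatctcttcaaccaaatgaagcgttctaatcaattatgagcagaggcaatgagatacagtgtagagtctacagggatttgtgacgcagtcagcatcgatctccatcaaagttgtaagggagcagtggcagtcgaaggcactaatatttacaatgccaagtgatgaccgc
Chrna5, downstream start: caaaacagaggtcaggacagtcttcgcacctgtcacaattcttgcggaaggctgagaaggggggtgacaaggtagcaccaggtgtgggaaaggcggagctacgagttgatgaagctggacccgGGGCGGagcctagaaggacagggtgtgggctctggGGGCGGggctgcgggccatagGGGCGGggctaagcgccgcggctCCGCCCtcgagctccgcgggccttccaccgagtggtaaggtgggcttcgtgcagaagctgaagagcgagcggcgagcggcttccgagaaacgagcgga
Chrna3: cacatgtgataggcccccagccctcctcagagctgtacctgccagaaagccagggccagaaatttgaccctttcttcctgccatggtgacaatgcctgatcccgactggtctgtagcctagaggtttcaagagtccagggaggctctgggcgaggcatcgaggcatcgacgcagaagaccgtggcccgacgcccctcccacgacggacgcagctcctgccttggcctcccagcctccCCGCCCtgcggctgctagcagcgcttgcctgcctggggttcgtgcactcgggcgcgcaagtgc
Chrnb4: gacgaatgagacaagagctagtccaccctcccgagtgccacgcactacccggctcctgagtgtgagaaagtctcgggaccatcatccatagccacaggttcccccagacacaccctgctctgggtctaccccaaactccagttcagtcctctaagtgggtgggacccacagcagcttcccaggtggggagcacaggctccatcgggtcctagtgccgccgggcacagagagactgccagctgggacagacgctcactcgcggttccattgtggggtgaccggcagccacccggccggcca

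The downstream Chrna5 window held 4 GC boxes and the Chrna3 window 1, while the upstream Chrna5 and the Chrnb4 windows held 0. A GC box in the window thus did not follow probe detection within the cluster. Chrnb4 read -3.39, -3.26, -3.55 and -3.002 in Hydroxyurea mice and -3.67, -3.48, -3.85 and -3.49 in Control mice. Hydroxyurea 3 alone of the treated mice lay within the Control range. The difference was 0.32 ± 0.13 (limma unadjusted p = 0.043, adjusted p = 0.497). Of the 8 medial habenula markers tested, 6 had a higher mean in Hydroxyurea mice, and their part in this difference was not tested. Its neighbour Chrna5 read -4.08, -3.92, -3.94 and -3.88 in Hydroxyurea mice and -3.39, -3.82, -4.12 and -3.60 in Control mice. The treated mice were close together inside the Control range, and the difference, -0.23 ± 0.15, had the other sign. Chrna3, below background throughout, read -7.34, -7.16, -7.58 and -6.72 in Hydroxyurea mice and -6.42, -8.25, -8.09 and -7.96 in Control mice. At that level the values set no order between the groups.

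Chrna7 read -2.23, -2.28, -2.25 and -2.50 in Hydroxyurea mice and -2.28, -1.91, -2.22 and -2.02 in Control mice. Its difference was -0.21 ± 0.10 (limma unadjusted p = 0.081), with the groups overlapping through Control 1. Chrnb2, first of the nicotinic subunits in probe signal in every mouse (mean 0.55), read 0.58, 0.42, 0.85 and 0.53 in Hydroxyurea mice and 0.73, 0.49, 0.36 and 0.45 in Control mice. Here too the groups overlapped, with a difference of 0.09 ± 0.11. Chrna4 read -2.37, -2.47, -1.24 and -1.97 in Hydroxyurea mice and -1.82, -2.71, -2.45 and -2.75 in Control mice. Hydroxyurea 3 was the highest of the 8 and Control 1 the next, and the difference was 0.42 ± 0.31 (limma unadjusted p = 0.211). It was 0.16 without Hydroxyurea 3, 0.63 without Control 1 and 0.83 in 19-week mice only. The means of Chrna7 (-2.21) and Chrna4 (-2.22) did not differ beyond their spread.

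Of the 12 serotonin receptor genes, 10 were tested, and 6 had a higher and 4 a lower mean in Hydroxyurea mice. Htr3a had the lowest unadjusted p of all 34 members. It encodes the ion channel among serotonin receptors, which in the hippocampus is carried by a class of GABAergic interneurons. It read -1.05, -0.96, -0.91 and -1.03 in Hydroxyurea mice and -1.68, -1.07, -1.34 and -1.47 in Control mice. Every treated mouse lay above every Control mouse, by a narrow margin over Control 2, and the Hydroxyurea mice were closely spaced. The means were -0.99 ± 0.06 in Hydroxyurea and -1.39 ± 0.25 in Control mice (SD, n = 4 each). The difference was 0.40 ± 0.12, or 1.32-fold (limma unadjusted p = 0.011, adjusted p = 0.467). Across 12 interneuron markers the median difference was 0.04, with none under an unadjusted p of 0.05. Their summed scaled signal ran from 290 to 361 in Hydroxyurea and from 274 to 332 in Control mice. The part of interneurons in the Htr3a difference was not tested.

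Htr5b, a receptor known in rodents from the habenula and the hippocampal CA1 field, also lay higher in every treated mouse. Its values were -0.815, -0.54, -0.67 and -0.71 in Hydroxyurea mice and -0.93, -0.821, -1.14 and -0.92 in Control mice. The gap between Hydroxyurea 1 and Control 2 was small. The difference was 0.27 ± 0.09, or 1.21-fold (limma unadjusted p = 0.017, adjusted p = 0.476). Beside it, the medial habenula markers had a median difference of 0.11, with a summed scaled signal of 7.95 to 8.95 in Hydroxyurea and 7.53 to 9.73 in Control mice. The 8 CA1 markers had a median difference of 0.03. The part of either cell population in the Htr5b difference was not tested.

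Htr1f, a Gi/o-coupled receptor, went the other way. It read -2.01, -2.51, -2.26 and -2.50 in Hydroxyurea mice and -1.80, -2.06, -1.93 and -1.90 in Control mice. Hydroxyurea 1 alone of the treated mice overlapped the Control range, through Control 2. The difference was -0.40 ± 0.12, or 0.759-fold (limma unadjusted p = 0.012, adjusted p = 0.472). Its relative Htr1a, the Gi/o-coupled inhibitory receptor of pyramidal neurons, had a difference near 0. It read -1.29, -1.63, -1.29 and -1.35 in Hydroxyurea mice and -1.10, -1.39, -1.44 and -1.51 in Control mice, a difference of -0.03 ± 0.11 with a 95% interval from -0.29 to 0.23. Htr1b, a terminal receptor that limits serotonin release, read -6.83, -5.79, -6.29 and -6.44 in Hydroxyurea mice and -5.67, -5.70, -5.47 and -6.60 in Control mice. It was well above background on 0 Hydroxyurea and 2 Control arrays, and its relative Htr1d on 0 and 1. Neither had a Control mean above the detection limit of the Hydroxyurea arrays, so no fold is given for them.

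**Figure D3:**
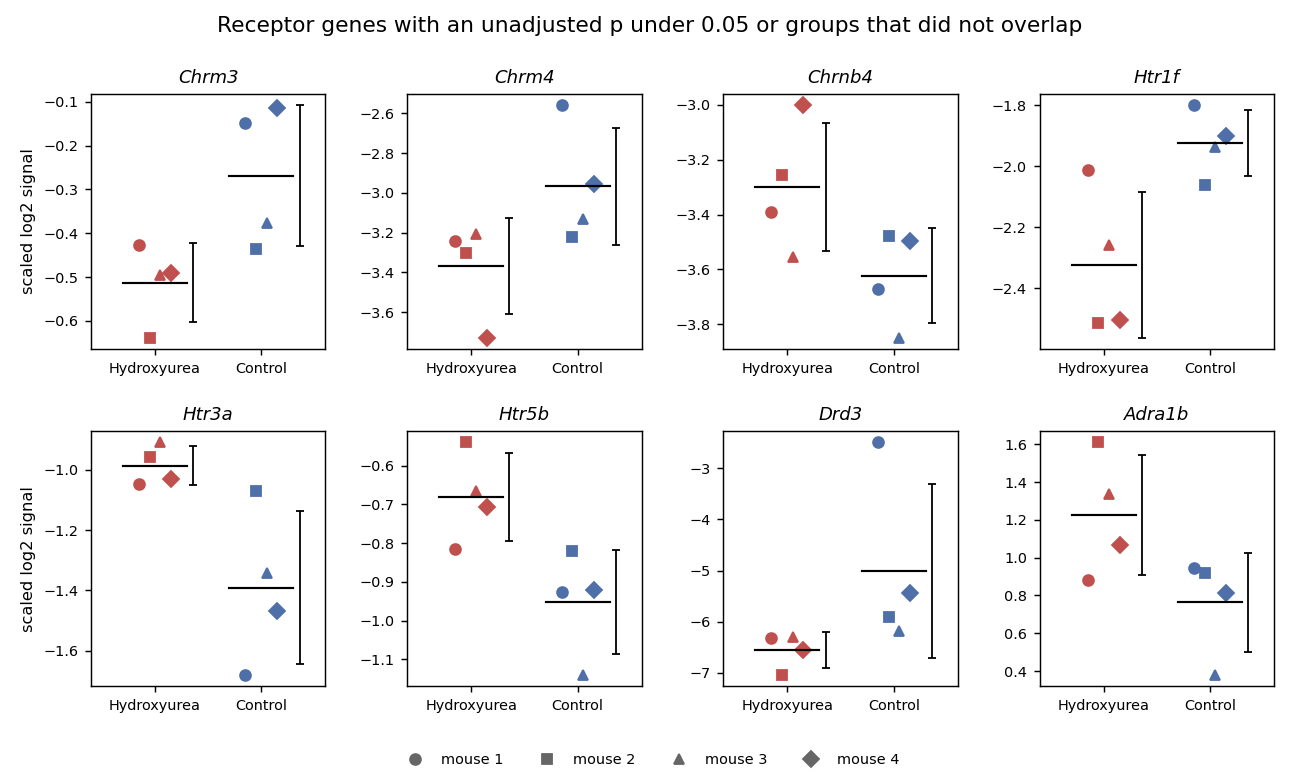
Scaled log2 signal of the 7 receptor genes with an unadjusted p under 0.05 and of Drd3, 1 panel per gene and 1 point per mouse, Hydroxyurea left of Control, with bars at the group means. In the Htr3a and Htr5b panels all Hydroxyurea points lie above all Control points. In the Drd3 panel Control 1 stands alone near -2.49.

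Htr2c had the brightest serotonin receptor probe in all 8 mice. It encodes a Gq/11-coupled receptor that is very abundant in choroid plexus epithelium. It read 2.05, 1.80, 2.17 and 2.87 in Hydroxyurea mice and 1.55, 2.15, 2.64 and 1.79 in Control mice. The highest values were those of Hydroxyurea 4 and Control 3, and the groups overlapped widely, with a difference of 0.19 ± 0.29. A dimmer Htr2c probe, well above background on all arrays, gave 0.68, and a probe near background gave 0.06. On the first of these, every treated mouse lay above every Control mouse. The margin was narrow, between Hydroxyurea 1 (-4.18) and Control 3 (-4.19). By the brightest probe, 2.38% of all genes lay above in this way. All 18 choroid plexus markers had a higher mean in Hydroxyurea mice, by a median of 1.28, and none had an unadjusted p under 0.05. Their summed scaled signal ran from 43.8 to 366 in Hydroxyurea and from 31.2 to 165 in Control mice. Their mean deviation from the 8-mouse average was -1.19, 0.88, 0.16 and 2.69 in Hydroxyurea 1 to 4 and -2.02, -0.99, 0.80 and -0.33 in Control 1 to 4. Hydroxyurea 4 was highest for the markers and for Htr2c, while Hydroxyurea 2, next highest for the markers, was among the low mice for Htr2c. The part of choroid plexus tissue in the Htr2c values was not tested.

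**Figure D4:**
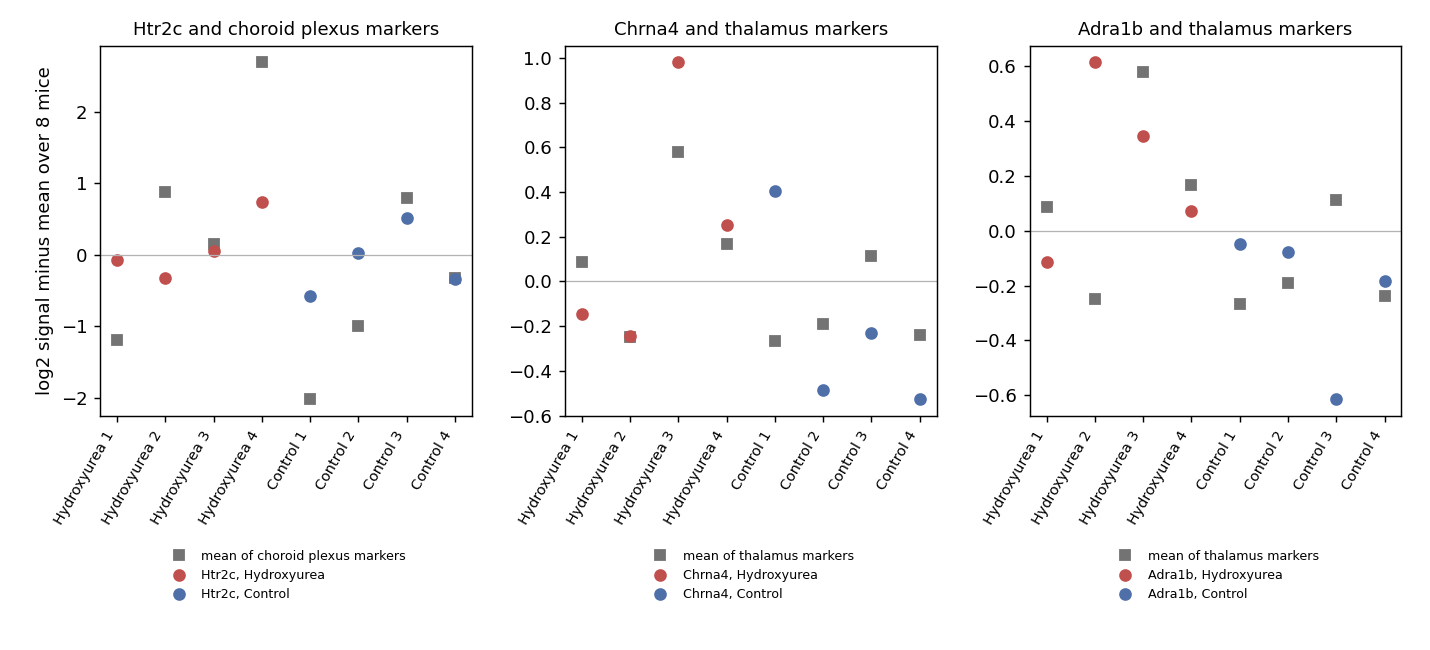
Log2 signal minus its mean over the 8 mice for Htr2c, Chrna4 and Adra1b (circles, Hydroxyurea left of Control), with the mean of the choroid plexus or thalamus markers in the same mouse (squares). Hydroxyurea 4 is highest for Htr2c and for choroid plexus markers (2.69), and Hydroxyurea 3 is highest for Chrna4 and for thalamus markers (0.58).

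The other serotonin receptors overlapped between groups. Htr5a, Gi/o-coupled, had the largest difference of them. It read -4.78, -6.07, -5.09 and -5.26 in Hydroxyurea mice and -4.62, -4.57, -4.60 and -5.02 in Control mice, well above background on 3 and 4 arrays. The difference was -0.60 ± 0.26 (limma unadjusted p = 0.052), with Hydroxyurea 2, the dimmest array, lowest. Htr7, a Gs-coupled receptor shared with the thalamus, read 1.07, 0.39, 1.05 and 0.80 in Hydroxyurea mice and 0.45, 0.88, 1.32 and 0.39 in Control mice. Both groups spanned nearly the same range, and the difference was 0.07 ± 0.24. The Gs-coupled Htr4 and Htr6 differed by -0.20 ± 0.19 and 0.13 ± 0.09. The Gq/11-coupled Htr2a differed by 0.06 ± 0.10. A second, dim Htr4 probe gave 0.41, opposite in sign to the one used. By mean probe signal the order was Htr2c (2.13), Htr7 (0.79), Htr4 (0.08), Htr5b (-0.82), Htr3a (-1.19), Htr1a (-1.38), Htr1f (-2.12), Htr2a (-2.35), Htr6 (-4.15), Htr5a (-5.00), Htr1d (-5.98) and Htr1b (-6.10). Htr1d and Htr1b did not differ beyond their spread. The order depends on taking the brightest probe: with the mean over a gene's probes, Htr7 came first, Htr2c was at place 7 and Htr4 at place 8.

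All 3 dopamine receptor members had a lower mean in Hydroxyurea mice, and none had an unadjusted p under 0.05. Drd1 and Drd2, which are not members, were also tested and had a higher mean, by 0.25 and 0.37. Drd5, the Gs-coupled receptor of hippocampal principal cells, read -0.38, -0.57, -0.60 and -0.79 in Hydroxyurea mice and -0.23, -0.22, -0.93 and -0.14 in Control mice. Control 3 was the lowest of the 8, below every treated mouse, and the difference was -0.21 ± 0.18. Drd4, Gi/o-coupled, was well above background on 3 Hydroxyurea and 4 Control arrays and differed by -0.19 ± 0.25. Drd3, also Gi/o-coupled, was not well above background on any Hydroxyurea array and was so on all 4 Control arrays, the only reason it passed the filter. It read -6.33, -7.04, -6.29 and -6.56 in Hydroxyurea mice and -2.49, -5.91, -6.18 and -5.44 in Control mice. Control 1 stood far above the rest, and the highest treated mouse lay just below Control 3. The fitted difference was -1.55 ± 0.76 (limma unadjusted p = 0.075, adjusted p = 0.539). Without Control 1 the Control mean fell below the mean detection limit of the Hydroxyurea arrays, -5.47, so no fold is given. The detection limits themselves ran from -6.18 to -5.04 on Hydroxyurea arrays and from -6.59 to -5.77 on Control arrays.

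For noradrenaline, 4 of 7 receptors had a higher mean in Hydroxyurea mice. Adra1b, Gq/11-coupled, read 0.88, 1.61, 1.34 and 1.07 in Hydroxyurea mice and 0.95, 0.92, 0.38 and 0.81 in Control mice. Hydroxyurea 1 lay within the Control range and the other 3 treated mice above it. The difference was 0.46 ± 0.18, or 1.38-fold (limma unadjusted p = 0.038, adjusted p = 0.494), and a second Adra1b probe gave 0.22. Adra1b is abundant in thalamus, and 9 of 11 thalamus markers had a higher mean in Hydroxyurea mice, by a median of 0.29. The thalamus marker mean was 0.09, -0.25, 0.58 and 0.17 in Hydroxyurea 1 to 4 and -0.27, -0.19, 0.11 and -0.24 in Control 1 to 4. The part of thalamic tissue in the Adra1b difference was not tested. The summed scaled signal of those markers was 14.9 to 30.4 in Hydroxyurea and 15.7 to 20.7 in Control mice.

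Adra2a and Adra2c, known as autoreceptors of noradrenergic terminals, overlapped between groups. Which cells in the tissue carried their RNA, or that of Chrm2 and Htr1b, was not tested. Adra2c, Gi/o-coupled, read 2.91, 2.9997, 2.89 and 2.84 in Hydroxyurea mice and 3.02, 2.92, 2.83 and 3.02 in Control mice. The groups interleaved, and the difference of -0.04 ± 0.07 had a 95% interval from -0.20 to 0.12. Adra2a, of the same coupling, differed by 0.06 ± 0.22. Adra2b, also Gi/o-coupled, read -1.87, -1.83, -1.88 and -2.06 in Hydroxyurea mice and -1.99, -2.05, -2.19 and -1.98 in Control mice. Hydroxyurea 4 alone of the treated mice lay within the Control range, and the difference was 0.14 ± 0.08 (limma unadjusted p = 0.099). The Gs-coupled Adrb1 differed by -0.06 ± 0.07, and the Gq/11-coupled Adra1d and Adra1a by 0.13 ± 0.13 and -0.11 ± 0.15. Dimmer second probes, well above background on all arrays, gave -0.05 for Adrb1 and -0.01 for Adra1d. Adra1a was well above background on 1 Hydroxyurea and 4 Control arrays. By mean probe signal the order was Adra2c (2.93), Adra2a (1.05), Adra1b (0.99), Adrb1 (0.72), Adra1d (0.48), Adra2b (-1.98) and Adra1a (-5.05). This order too depends on taking the brightest probe: with the mean over a gene's probes, Adra1d came before Adrb1. Adra2a and Adra1b did not differ beyond their spread.

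Hrh3, the Gi/o-coupled receptor by which histamine restrains transmitter release, read 3.97, 3.71, 3.97 and 3.65 in Hydroxyurea mice and 3.54, 3.75, 4.03 and 3.38 in Control mice. The groups overlapped, with a difference of 0.15 ± 0.15. Hrh1, a Gq/11-coupled receptor that excites its target cells, read 0.26, 0.03, 0.33 and 0.49 in Hydroxyurea mice and 0.31, -0.22, 0.63 and -0.40 in Control mice. The Control mice were the more spread, and the difference was 0.20 ± 0.23. Its dimmer probes gave 0.02 and 0.50. The Hrh3 promoter window held 5 GC boxes, the basis for showing it. It lies at chr2:180104358-180104657, minus strand, on GRCm38.p6, with GC boxes of either strand in capitals.
Hrh3: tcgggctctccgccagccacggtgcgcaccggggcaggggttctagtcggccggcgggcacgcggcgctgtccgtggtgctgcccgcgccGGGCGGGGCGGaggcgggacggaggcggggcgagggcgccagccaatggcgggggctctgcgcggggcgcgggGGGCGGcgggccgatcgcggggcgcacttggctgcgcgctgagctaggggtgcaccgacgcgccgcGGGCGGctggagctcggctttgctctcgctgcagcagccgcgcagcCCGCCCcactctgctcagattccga

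Windows of this kind were matched for 32 members, with 43 starts in all. Starts were counted, so the 8 members with several starts weigh more than the others. A GC box was present in 60.5% of the 43 and in 35.7% of all 32851 windows in the table. The median GC content was 61.3% in the receptors and 52.7% in all. Hrh2, which had no probe, was left out of the split by detection. Receptors well above background on all 8 arrays had a median of 66.0% over 32 starts, against 53.3% over 9 starts for those well above on fewer arrays. The GC box itself was in 59.4% and 55.6% of those windows, so its share was close in the 2 sets.

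Adora1 was the steadiest of all members, with a span of 0.13 log2 units over the 8 mice. It read 4.34, 4.35, 4.42 and 4.32 in Hydroxyurea mice and 4.44, 4.46, 4.38 and 4.43 in Control mice. Hydroxyurea 3 was the treated mouse within the Control range. The difference was -0.07 ± 0.05, with a 95% interval from -0.19 to 0.05, or 0.877-fold to 1.04-fold. Cnr1, carried mainly by a class of GABAergic terminals, read 4.68, 4.69, 4.75 and 4.58 in Hydroxyurea mice and 4.55, 4.94, 4.72 and 4.78 in Control mice. The groups interleaved, and the difference was -0.07 ± 0.09, with a 95% interval from -0.28 to 0.13. Adra2c (0.19) and Adrb1 (0.29) had the next narrowest spans after Adora1, and Drd3 (4.55) and Chrm2 (2.62) the widest.

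Sorted by coupling, 9 of 13 Gi/o-coupled receptors had a lower mean in Hydroxyurea mice, with a median difference of -0.07. Those 9 include Drd3, which passed the filter only through the Control arrays. Of the 9 Gq/11-coupled receptors, 5 were higher and 4 lower. Of the 5 Gs-coupled receptors, 2 were higher and 3 lower. Of the 6 ion channel subunits, 4 were higher and 2 lower, with a median of 0.21. Htr5b has no settled coupling and was left out of this sorting. Set against 51.3% of all genes below 0, these are counts over small groups.

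The genes that make, carry and break down the transmitters had no adjusted p under 0.05. Of 12 genes of acetylcholine handling, 8 had a higher and 4 a lower mean in Hydroxyurea mice. Ric3, a chaperone of nicotinic receptors, was the 1 gene with an unadjusted p under 0.05, with a difference of 0.17. Chat (0.07) and the vesicular transporter Slc18a3 (0.09), both made by cholinergic neurons, and the esterase Ache (0.27) were among the higher. Of 13 tested genes of monoamine handling the split was 8 to 5, with none under that p. The serotonin transporter Slc6a4 and the noradrenaline transporter Slc6a2 were below background on all 8 arrays. For adenosine handling it was 1 to 8 and for endocannabinoid handling 2 to 7, also with none. Adenosine kinase, Adk, differed by -0.05. Dagla, which makes the endocannabinoid 2-arachidonoylglycerol, differed by -0.25 and Mgll, which degrades it, by 0.03.

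Downstream of the receptors, 4 of 30 genes of G proteins and effectors had an unadjusted p under 0.05. Gnb1, a beta subunit, differed by 0.23, while Gna14, a Gq-family alpha subunit, differed by -0.42, Gnb5 by -0.15 and Gng2 by -0.16. Of 17 genes of receptor desensitization, 3 did: the receptor kinases Grk4 (-0.25) and Grk2 (0.18), and Rgs8 (-0.23), which speeds G protein shut-off. Among 13 tested receptors of the same families that are not members, Chrna6 (0.71) and Hrh4 (0.42) were the 2 with such a p. Each was higher in Hydroxyurea mice. These shares stand beside 9.89% of all genes.

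Age was compared within the treated mice, Hydroxyurea 1 and 2 at 24 weeks against Hydroxyurea 3 and 4 at 19 weeks. In limma, 0 of all genes had an adjusted p under 0.05 (0%), and 2.7% had an unadjusted p under 0.05. Of the 34 receptors, 0 had either, and 20 had a lower mean at 24 weeks (58.8%, against 55.5% of all genes). Chrna4 came nearest, with -2.37 and -2.47 at 24 weeks against -1.24 and -1.97 at 19 weeks. Both older mice were lower, by 0.81 ± 0.35 (unadjusted p = 0.0546). The value leaned on Hydroxyurea 3, without which the difference was -0.45. That mouse also had the highest thalamus marker mean of the 8, 0.58, while Control 1, second in Chrna4, had the lowest, -0.27. Chrna4 is strongly expressed in thalamus, and the part of thalamic tissue in its values was not tested.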

How the data were processed

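Hippocampal RNA from 8 mice, 4 per group, was hybridised to 1-colour Agilent arrays. The authors deposited 1 scanner file per array with spot intensity values, made with Feature Extraction 12.0.3.1 per the file headers, which name build mm9. Their processed signal is background-subtracted. A deposited value table holds a z score per array, with column medians from -0.21 to -0.17. It matched the z score of the scanner signals to within 0.005.

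Here the log2 of the processed signal was scaled to each array's 75th percentile. Control spots and outlier-flagged spots were left out, and spots of a probe averaged. Of 55681 probes, 28331 were named through RefSeq accessions (GRCm38.p6), giving 21368 genes. The brightest probe stood for a gene. A gene was kept where 4 or more of the 8 arrays flagged its probe as well above background and 6 or more gave a value. No spot was saturated. Groups were compared across 16620 genes with lmFit and eBayes of limma 3.58.1 (R 4.3.3), with Benjamini-Hochberg adjustment. Age used a fit with 3 group means. Normexp on the median spot and background signals was an alternative. The fits were tested on simulated data. The members, lists and tests were chosen with earlier results of these data known. Values in every mouse are given for the brightest member of each transmitter, members under an unadjusted p of 0.05 or with groups apart, and members tied to a neighbouring tissue. Those of Chrna7, Htr1a, Htr5a and Drd5 were added after their values were seen. From each gene list at most 4 genes of lowest p and the first-named ones are given; Slc18a3, Mgll, Slc6a2 and Slc6a4 were added later. Alternatives are given in the closing section.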

Additional observations from a re-analysis of the deposited data

Results flagged for a closer look

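In 74 groups of 4 mice, 1 group for each receptor gene and treatment, 7 had a mouse far from the other 3, by Dixon's criterion. Chance alone gives about 1 in 20 such groups, or 3.7 of 74. Each value is a scaled log2 signal. For Chrm2, Control 1 read -6.03, below the other Control mice at -4.05 to -4.00. For Chrna3, whose probe is below background on every array, Control 1 read -6.42, above the others at -8.25 to -7.96. For Chrm5, Hydroxyurea 1 read -7.03, against -5.47 to -5.18 in the other treated mice. Control 4 was low for Htr5a (-5.02, others -4.62 to -4.57) and for Drd4 (-5.31, others -4.75 to -4.68). Control 3 was low for Drd5, at -0.93 against -0.23 to -0.14. Hydroxyurea 3 read 0.58 for Adra1d, only slightly above the very close values of the other treated mice (0.53 to 0.54).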

How the results depend on the processing

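No receptor gene had an adjusted p under 0.05 in limma for treatment in any of 20 alternatives or for age in any of 16, and no named result turned in sign past its threshold. The 7 receptors at an unadjusted p under 0.05 became 3 with age as a covariate, 4 in 19-week mice only, and 3 without Control 1 and Hydroxyurea 2 together. Leaving out 1 mouse gave 3 (without Hydroxyurea 2) to 7. Htr1f and Htr3a had such a p in 19 of the 20 alternatives each, Htr5b in 17, Chrm3 in 12, Adra1b in 11, Chrm4 in 9 and Chrnb4 in 6. Over all genes the count, 1643, was 2483 with no filter and 3098 with array weights. It was 1091 (without Control 4) to 2519 (without Control 1) when 1 mouse was left out. For age, 0 genes passed adjustment, but 1 did without Hydroxyurea 3 and 7 without Hydroxyurea 4, a range of 0 to 7. The age count at an unadjusted p, 449, ran from 345 (without Control 2) to 989 (without Hydroxyurea 1), with 908 without Hydroxyurea 3. Receptors at that p for age numbered 0, and 1 with median scaling, quantile normalization, normexp, the value table, no filter, detection on all arrays, mean over probes or array weights (0 to 1 with 1 mouse left out). Among those 8 alternatives that gene was Chrna4, except Htr1d with no filter and Htr4 with the mean over probes. With 1 mouse left out it was Chrna4 without Control 1 or Hydroxyurea 4, Htr5a without Hydroxyurea 1, Chrm5 without Hydroxyurea 2 and Htr6 without Hydroxyurea 3. The causes were not tested. Receptors split 4 higher to 3 lower at an unadjusted p, against 2 to 6 with median scaling, 3 to 6 with normexp, 3 to 7 with the value table and 3 to 4 with quantile normalization. Of 37 receptors, 27 kept their place in the order of their transmitter with the mean over probes and 33 with normexp. Htr2a, Htr7 and Adra2a had a positive difference that turned negative with median scaling. With the replicate number as a block (replicate block), 1318 genes and 5 receptors had an unadjusted p under 0.05. Deviations of mice with the same number correlated at 0.05, 0.20, -0.21 and -0.06, so the numbers were not taken to pair mice. Limits are 4 mice a group, no 24-week Control mice, and dim probes near the array's detection limit.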
